A study of Mus musculus with 6 samples.

Results

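The genes described here encode small structured RNAs of the nucleolus, Cajal body and spliceosome, followed in mouse Th9 cells that were differentiated with or without interleukin 1β (IL-1β). They were taken by name: every entry whose symbol starts with Snora, Snord, Scarna or Rnu, together with Rmrp, Rpph1, Rn45s and Terc. Of 130 such entries, 124 had a usable value (status OK) and gave 114 symbols. Of these symbols, 35 were above 0 in at least 1 of the 6 libraries and are the members described below, of 23091 symbols in all. The other 79 symbols were listed at 0 in every library. The 7SK RNA (Rn7sk) and the major spliceosomal RNAs were not analysed here.

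Naive CD4 T cells came from spleen and nodes of wild-type C57/Bl6j mice aged 7 weeks. All groups were cultured on plates coated with CD3 and CD28 reagents, with IL-4 at 20 ng/ml, TGFβ at 2 ng/ml and an antibody that blocks IFNγ. Each pair of groups differed in IL-1β, which was absent or present at 10 ng/ml. Pairs were taken after 1 h, after 3 days, and in vivo: CD45.2 cells cultured for 3 days were injected into CD45.1 mice and recovered by sorting after 1 week. The labels do not name the organ they were sorted from. Each of the 6 groups is 1 library, so no difference has a replicate check and no p-value is given. The 1 h RNA was depleted of rRNA and the other 4 libraries were made from poly(A)-purified RNA, so stage and RNA selection cannot be told apart. Levels of different stages are only set side by side, and comparisons are made within a stage. T cell marker genes were above 0 in every library (7 of 7) and summed to 57.8 FPKM at 1 h without IL-1β and 72.7 in its pair, and to 2580 and 2096 FPKM in the in vivo pair. FPKM is the fragment number divided by transcript length and by the library's mapped fragments. In the same order, erythroid markers summed to 237 and 255 FPKM at 1 h, most of it from Hba-a1, and to 374 and 679 in vivo. Myeloid markers summed to 21 and 42.3 FPKM at 1 h, most of it from H2-Aa (18.6 and 27.9), with Cd14 at 0 in both. They summed to 647 and 1849 in vivo. Epithelial markers were at 0 at 1 h and summed to 6249 and 15725 in vivo. B cell markers summed to 22.3 and 17.9 FPKM at 1 h and to 39.6 and 24.3 in vivo. Markers of CD8 and NK cells summed to 9.93 and 7.13 FPKM at 1 h and to 15.1 and 10.7 in vivo. Their part in the results was not tested.

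Small nucleolar RNAs (snoRNAs) pair with ribosomal RNA and guide its chemical modification: box C/D RNAs guide methylation of the ribose by fibrillarin, and box H/ACA RNAs guide the change of uridine to pseudouridine by dyskerin. Small Cajal body RNAs (scaRNAs) do the same for spliceosomal RNAs, and most snoRNAs and scaRNAs are cut out of the introns of host genes. RNase P trims the ends of tRNA precursors, RNase MRP cuts the ribosomal RNA precursor, and both are built on a small RNA without a poly(A) tail. Activated T cells are known to raise ribosome production, which draws on snoRNAs and RNase MRP.

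At 1 h, Rn45s, Rpph1, Rmrp and Snord17 held most of the fragments of these genes. Rpph1, Rmrp, Snord17 and the H/ACA RNA Snora81 had 1.36 to 1.80 times as many fragments, relative to the library, with IL-1β as without it, and Rn45s had 0.963 times as many. Most other members rested on a few fragments however high their FPKM, and no direction can be given for them. Genes other than the members shifted in the same direction, with a median FPKM ratio of 1.16 over 443 genes. After scaling to that median, the deposited lower and upper bounds stayed apart for Rmrp (higher) and Rn45s (lower) alone. In each poly(A)-purified library 3 members were above 0.

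The sequences that follow are those of the members on which the results turn. They are GENCODE M21 transcripts (GRCm38) matched by name, since no genome of the files' build (mm9) was used. A transcript was matched for 34 of the 35 members (all but Rn45s). Its length equalled the deposited locus for 7 members, and the longest one exceeded the locus for 25. For the box C/D RNAs, capitals mark the first TGATGA (letters of the C box) and the last CTGA (the D box). The first RNA carries the largest FPKM of its library on very few fragments, and Snord15a and Snord15b are copies of the U15 RNA. Snord22 has a high FPKM at 1 h on 14 and 58 fragments, without and with IL-1β. Snord17 has the most fragments of the box C/D members.
Snord32a: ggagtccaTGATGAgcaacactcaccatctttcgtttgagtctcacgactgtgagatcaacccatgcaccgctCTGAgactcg
Snord15a: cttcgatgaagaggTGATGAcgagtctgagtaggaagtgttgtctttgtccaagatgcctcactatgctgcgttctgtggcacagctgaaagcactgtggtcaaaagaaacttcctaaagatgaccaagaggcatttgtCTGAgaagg
Snord15b: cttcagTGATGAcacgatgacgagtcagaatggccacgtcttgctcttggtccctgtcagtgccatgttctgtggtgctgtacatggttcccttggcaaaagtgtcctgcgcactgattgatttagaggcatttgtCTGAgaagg
Snord22: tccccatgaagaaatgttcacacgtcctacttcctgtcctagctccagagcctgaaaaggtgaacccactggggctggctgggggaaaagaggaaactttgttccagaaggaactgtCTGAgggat
Snord17: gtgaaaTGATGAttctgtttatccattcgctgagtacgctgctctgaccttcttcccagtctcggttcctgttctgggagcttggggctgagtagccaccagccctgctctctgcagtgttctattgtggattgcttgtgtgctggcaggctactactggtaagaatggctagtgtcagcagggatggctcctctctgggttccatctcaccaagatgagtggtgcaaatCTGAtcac

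TGATGA was found in 5 of the 6 box C/D members and CTGA in all 6, on the transcript's own strand. Among all 99 Snord transcripts of the annotation, 75.8% held TGATGA and 100% held CTGA. Of 42 Snora transcripts, 0 held TGATGA and 54.8% held CTGA. Snord22 is the member without TGATGA. The U15 copies were 66.0% identical, with 107 of 162 aligned columns the same.

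For the box H/ACA RNAs, capitals mark the ANANNA nearest to the middle (letters of the H box) and the ACA within the last 10 bases. Snora17 and Snora70 are the members counted as higher by the size rule given below, and Snora81 is the most abundant H/ACA member by fragments.
Snora17: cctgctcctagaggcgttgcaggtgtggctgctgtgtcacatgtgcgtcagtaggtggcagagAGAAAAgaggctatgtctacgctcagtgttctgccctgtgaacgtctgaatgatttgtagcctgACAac
Snora70: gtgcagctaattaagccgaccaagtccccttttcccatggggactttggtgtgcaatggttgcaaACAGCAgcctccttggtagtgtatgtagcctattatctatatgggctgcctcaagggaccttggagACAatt
Snora81: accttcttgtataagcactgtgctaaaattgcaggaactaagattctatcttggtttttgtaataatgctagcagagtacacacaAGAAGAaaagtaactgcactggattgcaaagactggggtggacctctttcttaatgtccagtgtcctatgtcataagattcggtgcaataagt

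ACA stood in the last 10 bases of 17 of the 19 H/ACA members, and of 95.2% of Snora against 8.08% of Snord transcripts in the annotation. Snora81 had none there, on a transcript of 178 nt against a deposited locus of 164 nt. Whether both have the same 3′ end was not tested. ANANNA is a loose pattern that 100% of the Snora transcripts held, so its presence describes no member in particular.

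The minor spliceosomal RNAs U11 (Rnu11) and U12 (Rnu12) are shown because the first has the lowest FPKM ratio among members with values in both 1 h libraries, at equal fragment number. Capitals mark AATTTTT, letters like those bound by the Sm proteins, which 6.0% of 1383 transcripts of the snRNA class in the annotation held.
Rnu11: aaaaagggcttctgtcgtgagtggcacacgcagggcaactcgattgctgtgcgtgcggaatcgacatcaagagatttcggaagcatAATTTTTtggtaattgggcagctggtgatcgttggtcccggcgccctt
Rnu12: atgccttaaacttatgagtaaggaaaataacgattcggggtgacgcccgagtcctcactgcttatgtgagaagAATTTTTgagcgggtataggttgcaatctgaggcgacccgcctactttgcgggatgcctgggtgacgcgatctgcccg

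The FPKM of these short RNAs do not state how many fragments lie behind them, but the deposited bounds can be read as fragment numbers. For loci of at most 450 nt, a bound multiplied by the locus length was a whole multiple of a constant of its library (within 0.02) for 95% of 80 bounds at 1 h without IL-1β and 95.1% of 123 with it, and for 96.3% to 98.8% in the poly(A) libraries. Read as fragments, these constants correspond to about 467135 mapped fragments at 1 h without IL-1β and 1088371 in its pair, to 1812272 and 1649198 in the day 3 pair and to 1439311 and 1477875 in the in vivo pair. These totals are inferred from the bounds, not stated by the authors. Apart from Terc (0 to 6 fragments), the lowest interval of a member with signal at 1 h ran from 0 to 7 fragments and the next from 0 to 9. Snora44 and Snora64 have the same locus length of 117 nt and these respective bounds at 1 h without IL-1β, and their FPKM of 1788 and 3576 differed by a factor of 2, so the intervals were taken as those of 1 and 2 fragments.

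On this reading, 1 fragment was worth very different FPKM for RNAs of different length. Values followed those of an FPKM divided by an effective length, with fragment lengths spread around a mean of 145 nt (SD 22.2) without IL-1β and 144 nt (SD 23.7) with it. The labels give library molecules of about 300 bp, adaptors included. The curve was fitted to 6 members with 1 fragment and 4 abundant members without IL-1β, and to 10 and 5 with it, with a largest misfit of 6.90% and 5.40%. Of the 14 member values at 1 h that it put at 2 to 5 fragments, 9 lay within 0.1 of a whole number. Snord32a (81 nt) and Snord8 (99 nt) are shorter than any fitted member, so the curve is extrapolated there. It put them at 2.23 and 2.26 fragments with IL-1β.

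**Figure D1:**
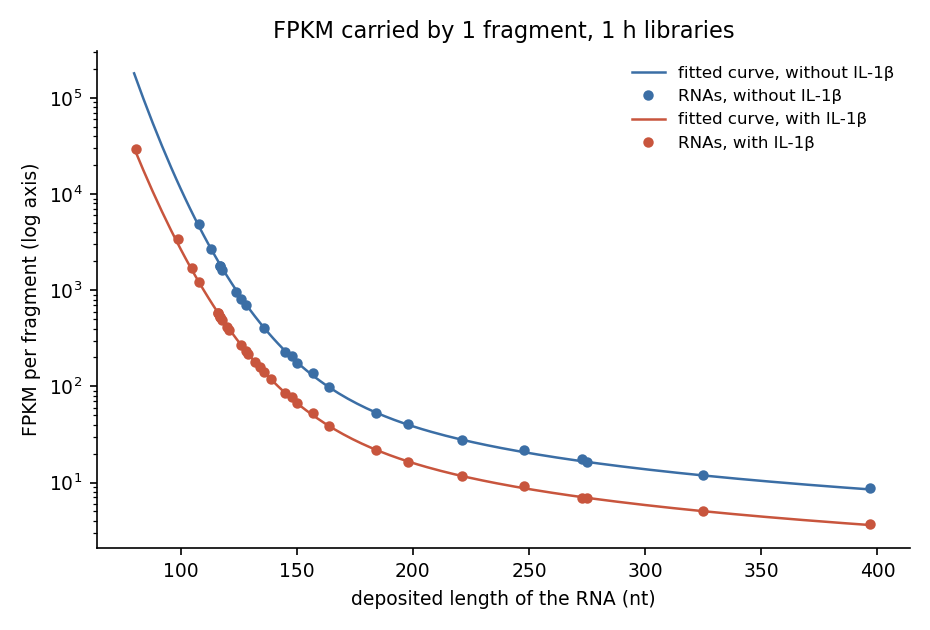
FPKM carried by 1 fragment (log axis) against deposited locus length in nt for the 2 libraries at 1 h; points are members, with their FPKM divided by their rounded fragment number, and lines the fitted curves. On the fitted curve, a fragment on an 81 nt RNA was worth 26318 FPKM in the library with IL-1β and one on a 397 nt RNA 3.61. The curve without IL-1β lies above the other throughout.

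By the fitted curve, a single fragment on a 117 nt RNA amounted to 1853 FPKM without IL-1β and 542 with it. On a 221 nt RNA it amounted to 28.0 and 11.7 FPKM, and on a 325 nt RNA to 11.9 and 5.04. Members with equal fragment numbers in both libraries show the length correction together with the difference in depth. By depth alone, 1 fragment on a 108 nt RNA such as Rnu11 would be 19.8 FPKM without IL-1β and 8.51 with it. Rnu11 had 1 fragment in each and 4862 against 1217 FPKM, 3.99 times more without IL-1β. Snora21 had 3 in each and 2109 against 697 FPKM, Snora16a 1 in each and 401 against 140, and Snora78 1 in each and 138 against 52.7. FPKM ratios of RNAs this short therefore mix abundance with the length correction, and the comparisons below also give FPM, the fragments per 1000000 mapped fragments, which is not scaled to length.

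Whether an RNA had any signal at 1 h followed its length. Of entries of 80 nt or less, 0 of 56 were above 0 in either 1 h library. The share was 2 of 23 at 81 to 100 nt, 10 of 18 at 101 to 120 nt, 9 of 13 at 121 to 140 nt and 14 of 14 above 140 nt. The shortest entry is 42 nt and the shortest member 81 nt. Of the 89 entries at 0 in all libraries, 77 were 100 nt or shorter, and the longest was 129 nt.

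**Figure D2:**
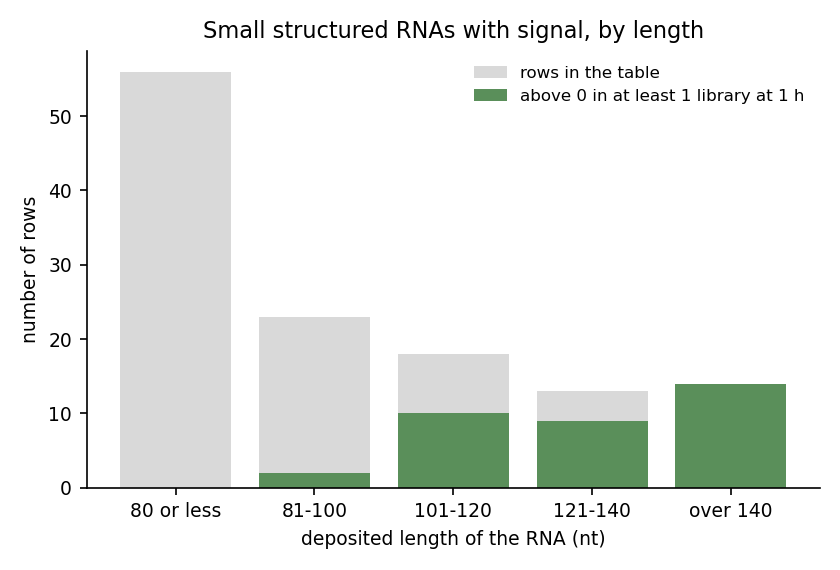
Number of entries by deposited length in nt (grey) and number above 0 in at least 1 library at 1 h (green). The green share goes from 0 of 56 entries of 80 nt or less to 14 of 14 above 140 nt.

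Most box C/D RNAs are short, and they were the class most often without signal. Only 6 of 64 C/D symbols were members, against 19 of 34 H/ACA symbols, 4 of 9 scaRNA symbols and 2 of 3 Rnu symbols (Rnu73b was at 0 throughout). A short C/D RNA listed at 0 therefore cannot be called absent from the cells. Of the members, 23 were above 0 at 1 h without IL-1β and 32 with it. In both 1 h libraries 20 were above 0, 12 in the one with IL-1β alone and 3 (Snora41, Snora34 and Scarna3b) in the other alone. The 15 members above 0 in 1 of these libraries alone had at most 5 fragments there. A count of 0 allows up to 3 fragments, or 6.42 FPM without IL-1β and 2.76 FPM with it, so the difference in depth bears on this count.

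The Rn45s entry, named for the 45S precursor of ribosomal RNA, took the most fragments of all members in both 1 h libraries (mm9, chromosome 17, 39979942 to 39985774). It had 58843 FPKM without IL-1β and 56674 with it, from 156367 and 350996 fragments. By fragments it made up 33.5% and 32.3% of the libraries, after rRNA depletion. How far these shares reflect the depletion of each library was not tested. As a share of summed FPKM it was 41.3% and 24.7%, and the other members made up 45.7% and 65.2% of that sum. Its ratio in FPM was 0.963 with IL-1β over without (95% interval 0.958 to 0.969). Intervals of ratios here are exact binomial (Clopper-Pearson), those of levels exact Poisson. Both cover counting error only, and PCR copies without molecular identifiers are not independent molecules.

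The Snord32a RNA (81 nt, chromosome 7, 52382753 to 52382833) shows how few fragments can carry a value. In the library with IL-1β it was listed at 58624 FPKM, above Rn45s, and made up 25.5% of all summed FPKM. Its bounds were those of 2 fragments (0 to 9), against 350996 fragments of Rn45s. Without IL-1β it was listed at 0. Together, 17 members with 1 to 5 fragments held 33 fragments and 32.3% of the summed FPKM with IL-1β, and 13 such members held 24 fragments and 14.1% without it. All members summed to 87.1% and 89.9% of FPKM at 1 h, but to 33.8% and 32.7% of mapped fragments by their bounds.

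The RNA subunits of RNase P and RNase MRP followed Rn45s in fragments. Rpph1, the RNA of RNase P (chromosome 14, 51427122 to 51427446), had 10594 FPKM without IL-1β and 14246 with it, from 894 and 2828 fragments. That is 1913 and 2599 FPM, a ratio of 1.36 (1.26 to 1.47). Rmrp, the RNA of RNase MRP (chromosome 4, 43505657 to 43505931), had 4534 and 7311 FPKM from 277 and 1054 fragments. Its level was 592 and 968 FPM, a ratio of 1.64 (1.43 to 1.87). Both ratios lay above 1 beyond counting error, and their deposited bounds did not overlap.

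Among the box C/D RNAs, Snord17 (221 nt, chromosome 2, 144091718 to 144091938) was best measured. It had 5554 FPKM without IL-1β and 7928 with it, from 199 and 677 fragments. Its level was 425 and 622 FPM, a ratio of 1.46 (1.24 to 1.72). Snord22, known as U22 and needed to process the RNA of the small ribosomal subunit, had the highest FPKM among snoRNAs with 10 or more fragments in both, 11484 and 15747. These came from 14 and 58 fragments, with a FPM ratio of 1.84 (0.980 to 3.45), which includes 1. The U15 copies, which guide methylation in the RNA of the large subunit, lie in the same host gene at different levels, 39.8 and 68.2 FPM for Snord15b against 8.96 and 10.5 for Snord15a. Snord15b had 4352 and 6364 FPKM from 19 and 74 fragments, a ratio of 1.71 (0.999 to 2.93). Snord15a had 833 and 847 FPKM from 4 and 11 fragments, a ratio of 1.17 (0.350 to 5.08). Snord8, like Snord32a, was listed at 0 without IL-1β and had 2 fragments with it, worth 6781 FPKM. Summed over the 6 members, C/D RNAs had 503 FPM without IL-1β and 758 with it, a ratio of 1.51 (1.30 to 1.75), and Snord17 supplied 677 of the 825 fragments with IL-1β.

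Of the 19 box H/ACA RNAs, Snora81 (164 nt, chromosome 16, 23110843 to 23111006) had the most fragments. It had 3916 FPKM without IL-1β and 6483 with it, from 40 and 168 fragments, a FPM ratio of 1.80 (1.27 to 2.61). Snora74a, known as U19, had 1174 and 1451 FPKM from 29 and 88 fragments, a ratio of 1.28 (0.847 to 2.06). Snora23 had 586 and 658 FPKM from 11 and 30 fragments, a ratio of 1.18 (0.570 to 2.59). Snora81 is the H/ACA member whose ratio lay above 1 beyond counting error. Snora64 had 3576 and 6356 FPKM on 2 and 12 fragments, and Snora44 had 1788 and 5297 FPKM on 1 and 10. Their ratio intervals were 0.573 to 23.7 and 0.611 to 186, too wide for a direction. The other H/ACA members had at most 5 fragments in either library. As a class, the H/ACA RNAs had 193 and 302 FPM, a ratio of 1.56 (1.24 to 2.00). Snora81 supplied 40 of the 90 fragments without IL-1β and 168 of the 329 with it. The sum also holds members that entered through signal in 1 library alone: 10 H/ACA RNAs were above 0 without IL-1β and 17 with it.

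The scaRNAs, which guide modification of spliceosomal RNAs, rested on 7 fragments without IL-1β and 27 with it. Scarna13 had 34.9 and 110 FPKM from 2 and 16 fragments, and Scarna6 had 65.6 and 91.3 FPKM from 3 and 10. Scarna8 was listed at 0 and 488 FPKM, on 1 fragment with IL-1β, and Scarna3b at 1923 FPKM and 0, on 2 without it. For Scarna13 and Scarna3b the fragment number comes from the fitted curve alone, since their bounds were not such multiples. The scaRNA ratio was 1.61 with an interval of 0.703 to 4.50.

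Rnu12, the U12 RNA that pairs with the branch site of minor introns (chromosome 15, 82980075 to 82980224), had 2837 FPKM without IL-1β and 2783 with it, from 16 and 41 fragments. Its FPM ratio was 1.12 (0.604 to 2.10). Rnu11, the U11 RNA that recognises the 5′ splice site of the same introns, had 1 fragment in each library. Terc, the template RNA of telomerase, which carries an H/ACA domain, had 17.4 and 18.4 FPKM from 2 and 5 fragments, or 4.39 and 4.69 FPM. Its bounds without IL-1β (0 to 6 fragments) lie below those taken as 1 fragment (0 to 7), so its 2 fragments rest on the fitted curve. No difference was detectable for these 3 RNAs at this depth.

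**Figure D3:**
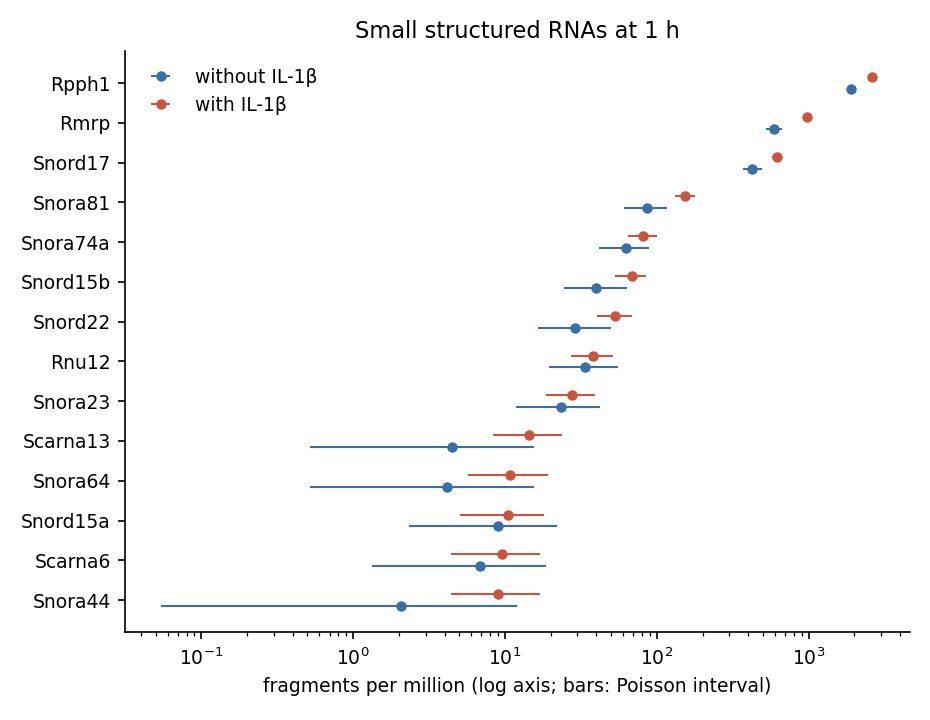
FPM at 1 h (log axis) with 95% exact Poisson intervals, without (blue) and with IL-1β (red), for the members other than Rn45s with 10 or more fragments in at least 1 library. For Rpph1, Rmrp, Snord17 and Snora81 the intervals do not overlap, and from Snora74a downward they overlap.

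The 1 h libraries with and without IL-1β were first compared on FPKM. To be counted, a gene needed a ratio of (FPKM + 1) of at least 2 in either direction, a larger FPKM of at least 5 and deposited bounds that lay apart. Of the 35 members, 2 were counted as higher and 0 as lower. Over all 933 compared genes, 7.72% were counted as higher and 0.214% as lower, so the members' 2 of 35 was near the background. The median log2 ratio was 0.55 over the members and 0.30 over all compared genes. It is given as a description without direction, since 12 members had signal with IL-1β alone and 3 without it alone, and a gene became a member through either. Over the 20 members above 0 in both libraries the median was 0.37. Without entries above their own upper bound it was 0.081, but Scarna13, Scarna3b and Terc alone were then left, and 0.081 is Terc's ratio. Over the members it was -0.50 when the libraries were scaled to equal sums without Rn45s.

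Both counted members were H/ACA RNAs listed at 0 without IL-1β. Snora17 had 892 FPKM with it, from 5 fragments (bounds 2 to 16), and Snora70 had 868 FPKM from 4 fragments (bounds 1 to 14). Their levels of 4.54 and 3.63 FPM lie below the 6.42 FPM that a count of 0 allows in the library without IL-1β. A difference was therefore not detectable at this depth for either, despite the call.

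On the scale of fragments, most of the deeply covered RNAs were at a higher level in the library with IL-1β. Of 10 members with at least 10 fragments in both libraries, 9 had a ratio above 1. Rn45s was the exception. The other 9 ranged from 1.12 to 1.84 with a median of 1.46, and for 4 of them (Rmrp, Rpph1, Snord17 and Snora81) the interval lay above 1. Deposited bounds at any fold were apart for 3 of the 20 members above 0 in both libraries in the direction of IL-1β (Rmrp, Rpph1, Snord17) and for 1 in the other (Rn45s). The background of that rule was 5.58% higher and 0.119% lower among 843 genes. It was not matched for fragment number, on which the width of the bounds depends. The members with bounds apart had 199 or more fragments in each library, so the shares are not like for like.

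Other genes were shifted in the same direction. Over 443 other genes with at least 5 FPKM in both libraries, the median FPKM ratio was 1.16. The FPM ratios divided by that median were 1.41 (1.23 to 1.61) for Rmrp and 1.55 (1.10 to 2.26) for Snora81. They were 1.26 (1.07 to 1.48) for Snord17, 1.17 (1.09 to 1.26) for Rpph1 and 0.832 (0.827 to 0.837) for Rn45s. These values set FPM against a median of FPKM ratios. Their intervals take the median as fixed and leave out its own uncertainty. The deposited bounds, scaled likewise, stayed apart for Rmrp (higher) and Rn45s (lower) alone. The 34 members without Rn45s summed to 3257 FPM without IL-1β and 4696 with it, a ratio of 1.44 (1.36 to 1.53), and 25 snoRNAs to 696 and 1060, a ratio of 1.52 (1.35 to 1.73). These sums largely restate single RNAs given above: with IL-1β, Rpph1 supplied 2828 and Rmrp 1054 of the 5110 fragments, and Snord17 677 of the 1154 snoRNA fragments. With 1 library a group, the difference between libraries cannot be told apart from an effect of IL-1β. Fewer cells of a type and less RNA per cell cannot be told apart either.

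**Figure D4:**
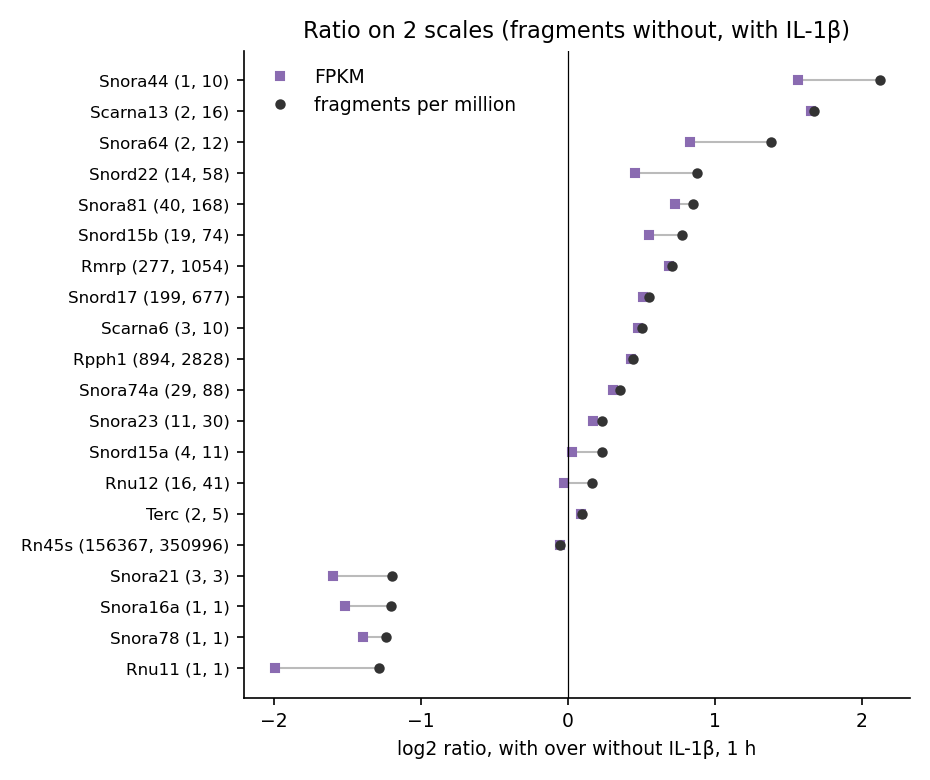
Log2 ratio with over without IL-1β at 1 h for the 20 members above 0 in both libraries, as FPKM (squares) and as FPM (circles), with the rounded fragment numbers in brackets. The 2 scales coincide for long or abundant RNAs such as Rmrp and Rn45s and part for short ones such as Rnu11, Snora44 and Snord22.

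In the poly(A)-purified libraries few members were above 0, 3 in each library and 6 in all. Rn45s had 145 and 144 FPKM at day 3 without and with IL-1β, and 214 and 242 FPKM in vivo, with bounds of 1420 to 1629, 1278 to 1485, 1654 to 1871 and 1923 to 2172 fragments. It was 0.0841% and 0.0838% of mapped fragments at day 3, and 0.122% and 0.139% in vivo. Rpph1 had 22.1 and 23.8 FPKM at day 3, and 20.9 and 71.4 FPKM in vivo. The bounds of Rpph1 overlapped within each pair (2 to 16 and 2 to 16 fragments, then 1 to 12 and 4 to 23).

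The other 4 members appeared in 1 poly(A) library each. Snord17 was at 15.2 FPKM at day 3 without IL-1β, on bounds of 1 fragment, and Terc at 3.07 FPKM at day 3 with it. In vivo, Rmrp was at 28.9 FPKM with IL-1β, on bounds of 2 fragments. Snora17 was at 1689 FPKM in vivo without IL-1β, again on bounds of 1 fragment. That value alone put the members at 0.532% of summed FPKM in that library, against 0.0930% in its pair. By the size rule 0 of 3 members compared at day 3 and 0 of 4 in vivo were counted in either direction. Over all genes, 1.29% were counted as higher and 2.15% as lower at day 3, and 6.23% and 3.48% in vivo.

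Most members lie within another gene. By the files' coordinates 29 sat inside the locus of 1 of 26 host genes, while Rmrp, Rn45s, Rnu11, Rnu12, Rpph1 and Terc did not. Their levels are set side by side with those of the small RNAs here, without a comparison over time. The median FPKM of the hosts was 2.78 and 2.71 at 1 h, 41.6 and 56.1 at day 3, and 36.2 and 51.3 in vivo. Snord22 had 11484 and 15747 FPKM at 1 h and 0 later, while its host Snhg1, a noncoding gene whose introns hold several snoRNAs, was listed at 0 at 1 h and had 55.6 and 157 FPKM at day 3. Snora81 lies in Eif4a2, a translation initiation factor gene, which had 8.50 and 11.2 FPKM at 1 h and 85.2 and 109 at day 3. Snord32a lies in the ribosomal protein gene Rpl13a, which had 94.1 and 105 FPKM at 1 h and 1221 and 1570 at day 3.

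**Figure D5:**
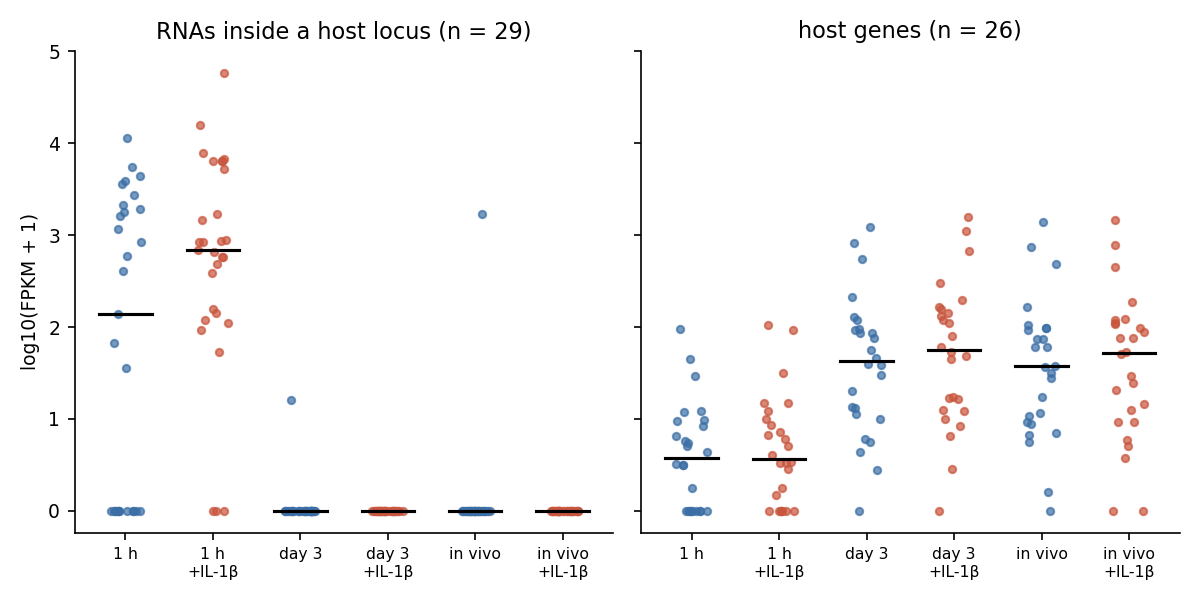
Log10 of (FPKM + 1) in the 6 libraries for the 29 members inside a host locus (left) and their 26 host genes (right); each point is a gene and the bar the median. Members lie at 0 in the poly(A) libraries apart from 1 value each of Snord17 and Snora17, and the bars of the hosts mark medians from 2.71 to 56.1 FPKM. Stage and RNA selection cannot be told apart in either panel.

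Host genes and members were also compared with IL-1β. At 1 h, Rps3, the ribosomal protein gene that holds both U15 copies, was the 1 of 11 compared hosts counted as higher, against 7.72% of all genes (43.4 and 92.4 FPKM, log2 1.07), beside ratios of 1.71 and 1.17 for Snord15b and Snord15a. At day 3, 2 of 24 compared enclosing hosts were higher and 0 lower, against 1.29% and 2.15% of all genes. These were Snhg1 (log2 1.48) and Snhg4, which encloses Snora74a (4.66 and 15.9 FPKM, log2 1.58). In vivo, Snhg12, which encloses Snora44 and Snora16a, was the 1 of 23 counted as higher, against 6.23% of all genes (35.4 and 108 FPKM, log2 1.59). The members inside Snhg1, Snhg4 and Snhg12 were at 0 in these poly(A) libraries, so host and member cannot be set side by side there. On a wider list of 29 snoRNA host genes, 4 of 28 compared at day 3 were higher and 0 lower. Beside Snhg1 and Snhg4 these were Snhg6 (91.7 and 234 FPKM, log2 1.34) and Taf1d (37.2 and 77.7 FPKM, log2 1.04). The list's median log2 ratio was 0.36, against -0.07 over all genes.

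Of the genes for proteins that build or work with these RNAs, 1 to 4 per list could be compared at 1 h and 0 were counted. At day 3 and in vivo each list below gave at most 1 counted gene in a pair. The shares over all genes were 1.29% higher and 2.15% lower at day 3, and 6.23% higher and 3.48% lower in vivo, and single calls in lists of this size are no result about a list. Of the box C/D proteins, 0 of 11 compared were counted at day 3, with a median log2 ratio of 0.36. Nop56, a core protein, had 140 and 180 FPKM, and Nop58, its partner, 58.2 and 97.3. In vivo 1 of 9 was higher: Nufip1, an assembly factor, with 2.60 and 7.09 FPKM (log2 1.17). Of the H/ACA proteins, 0 of 7 were counted at day 3 or in vivo, and the medians were 0.32 and -0.02. The core protein Nop10 had 117 and 161 FPKM at day 3, and Dkc1, dyskerin, 40.8 and 51.3.

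Of the RNase P and MRP proteins 0 of 8 were counted at day 3 and 0 of 7 in vivo. The highest, Rpp21, had 90.1 and 123 FPKM at day 3, and the list's median log2 ratio was 0.33. Of 25 spliceosomal proteins, 1 was higher at day 3 and 0 lower, with a median of 0.34. This was Snrpd1, a protein of the Sm ring (71.4 and 151 FPKM, log2 1.07). In vivo Snrpf, of the same ring, was the 1 of 25 counted as lower (133 and 63.7 FPKM, log2 -1.05), and the median was -0.26 against 0.08 over all genes. Of 13 genes of the Cajal body and the SMN complex, which loads Sm rings onto spliceosomal RNA, 0 were counted at day 3. In vivo Gemin8 was the 1 of 12 counted as lower (24.3 and 5.55 FPKM, log2 -1.95). Of the proteins bound by or controlled through 7SK RNA, 0 of 6 were counted at day 3, and in vivo Hexim1, an inhibitor of transcription elongation, was the 1 of 6 counted as higher (12.3 and 26.9 FPKM, log2 1.07). At day 3 the medians of these protein lists lay above 0, apart from that of 7SK (-0.23), against -0.07 over all genes.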

How the data were processed

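RNA of 6 libraries, 1 per group, was sequenced on a MiSeq. The deposited values are FPKM per gene with a lower and an upper bound, made by the authors, per the file headers. TopHat and the build mm9 come from the submitters' processing notes. Not given in the sources used here are the version of TopHat, the quantifier and the level of the bounds. There are 23700 entries per file, and 285 with a status other than OK were left out. Entries sharing a symbol were summed with their bounds. Coordinates are those of the files, with starts counted from 1.

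Log2 ratios are of FPKM with a pseudocount of 1. Genes with 5 FPKM in at least 1 library of a pair were compared over the whole table, and the size rule is given with the results. A list's median is over genes with at least 1 FPKM in either library.

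Fragment numbers were recovered from the bounds after the data were seen. The library constant was taken over loci of at most 450 nt, with the smallest upper bound times length set to 2 fragments. A normal fragment length was fitted to members with 1 fragment and to members with bounds of 100 fragments or more. FPM (fragments per 1000000) use the recovered totals. The code for the recovery was tested on simulated data without noise, which does not bear on whether the bounds count fragments.

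The genes named are Rmrp, Rpph1, Rn45s, Terc, all Rnu and Scarna members, the 10 members highest at 1 h, members counted by the size rule, the 5 highest in each poly(A) pair, members with values used to show the recovery of fragments, host genes of these, and in each list the counted genes and up to 3 of the highest. The members and lists were chosen with earlier results of these data known. Motifs were searched on the given strand of GENCODE M21 transcripts.

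Alternatives were pseudocounts of 0.1 and 5, no floor and a floor of 50 FPKM, a 3-fold rule, the rule without bounds, the largest entry of a symbol, entries of any status, 3 scalings, removal of entries above their own upper bound and the sum without Rn45s. FPM, members above 0 in both libraries and shares by bounds were added after seeing the data. Software was scipy 1.17.1, pandas 2.3.3, numpy 2.4.6 and matplotlib 3.10.9 under Python 3.11.15.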

Additional observations from a re-analysis of the deposited data

Results flagged for a closer look

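Snora24, an H/ACA RNA of 130 nt, was left out of the comparisons because its entry had a status of low data in place of OK. It was listed at 1015 FPKM at 1 h with IL-1β and at 0 in the 5 other libraries, which is a signal in an entry that entered the comparisons only under the alternative that keeps entries of any status. Snora26, the other entry of that kind with signal, was listed at 2477 FPKM without IL-1β and 1920 with it at 1 h.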

How the results depend on the processing

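Of 112 alternative values, 88 stayed within the limits set for a change, 23 moved and 1 changed direction. At 1 h, the size rule without bounds counted 14 members as higher and 7 as lower. Without entries above their own upper bound the size rule counted 0 as higher. Snora17 and Snora70 were removed there, and the median log2 ratio of 0.081 is that of Terc. With FPM 0 of 16 compared members were higher, and Snora17 and Snora70 fell below the floor of 5. The median log2 ratio over these 16 stayed within the limits. After scaling to equal sums without Rn45s 1 member was lower and the median was -0.50. The median was 0.33 after scaling to a median ratio of 1, 0.79 after scaling to equal upper quartiles, and 0.37 over members above 0 in both libraries. The rule without bounds counted 1 member as lower at day 3, and 2 as higher and 1 as lower in vivo. Snord32a alone held 25.5% of all FPKM with IL-1β on 2 fragments. The cause of these moves was not tested.

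Without Rn45s the members' share of summed FPKM was 78.0% in the 1 h library without IL-1β, 0.0103% and 0.00656% in the day 3 pair and 0.473% and 0.0273% in the in vivo pair. As a share of mapped fragments it was 33.8% and 32.7% at 1 h, 0.0848% and 0.0844% at day 3, and 0.123% and 0.140% in vivo. No paired analysis was possible because each group has 1 library and the labels carry no replicate numbers. Depth is a limit for many members: 20 had at most 5 fragments in both 1 h libraries, and 19 and 30 members had an FPKM above their own upper bound at 1 h, without and with IL-1β respectively.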
